A study of Mus musculus with 6 samples.

Results

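*Calcoco2*, *Phf11d*, *2210409E12Rik*, *Fbxo15*, *Xlr3c*, *Spic* and *Ly6g6e* are 7 genes that were strongly expressed in mouse embryonic stem cells (mESCs) and nearly absent from cardiac precursor cell cultures (CPCCs). They were chosen by name, out of the 16279 genes listed for either cell type, because their read counts were nearly lost in CPCCs. The difference between the cell types is therefore how they were picked and is given as a description without a test. Both groups were male F1 cells of the strain C57BL/6 x CAST/EiJ, from C57BL/6J mothers and CAST/EiJ fathers by the study's methods, with 3 libraries each. The mESCs came from 3 blastocysts and were kept without feeders in medium with 2i and LIF. The CPCCs were grown from those mESC clones through hanging drops and embryoid bodies with ascorbic acid, followed by passages with EGF and FGF2. The study describes the CPCCs as cultures of several cell types, so a level in CPCCs is an average over a mixture. In such bulk samples, fewer cells of a type and less RNA per cell cannot be told apart.

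Stem cells held in 2i and LIF stay in a naive state, kept by a network of transcription factors such as *Pou5f1*, *Nanog*, *Esrrb* and *Zfp42*. On differentiation this network is shut down, and many genes that it keeps active fall silent. Some genes expressed in stem cells encode regulators, and others have roles with no known part in pluripotency. The 7 genes have varied roles, and whether the naive network keeps them active was not tested here. *Spic* encodes a transcription factor of the ETS family, best known from macrophages of the spleen that recycle iron. *Phf11d* encodes a PHD finger protein, a kind of protein that often binds histones. *Xlr3c* belongs to an X-linked family related to *Sycp3*, a component of the meiotic chromosome axis. *2210409E12Rik* is annotated as a transcribed processed pseudogene. *Calcoco2* encodes a selective autophagy receptor, *Fbxo15* an F-box protein of a ubiquitin ligase and *Ly6g6e* a protein of the Ly6/uPAR family of small surface proteins.

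Libraries are named by their columns, S01 to S03 for mESCs and S04 to S06 for CPCCs, since no replicate number is attached to them. Library totals lay between 6442639 and 6907330 counts in mESCs and between 8468819 and 11436062 in CPCCs. For mESCs 13761 genes are listed and for CPCCs 15519, each with at least 10 counts over its 3 libraries. Of 20 mESC markers, all 20 were lower in CPCCs by edgeR's quasi-likelihood test at an adjusted p under 0.05, where 29.7% of all 12471 genes tested were lower and 31.7% higher. Their sum per 1000000 counts lay between 8557 and 9076 in mESCs and at 197, 435 and 649 in S04, S05 and S06. Fibroblast or mesenchyme markers summed to between 8656 and 12422 in CPCCs on the same scale, against 952 to 1141 in mESCs. Of 11 cardiac precursor markers, which summed to 149.9, 55.5 and 78.5 in S04, S05 and S06 and to 12.9 to 17.8 in mESCs, 5 were tested and 1 was higher, *Tnnt2* (1.58 ± 0.655 in mESCs and 51.6 ± 44.2 in CPCCs). Of the other 6, 5 are listed for CPCCs alone, among them *Nkx2-5* at a mean of 0.836 and *Myh6* at 11.9, and *Tbx5* is listed for mESCs alone. Macrophage markers were uneven over the CPCC libraries, at 651, 312 and 245 in S04, S05 and S06, and their part in the results was not tested.

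Levels are given as normalized counts per 1000000 (CPM), and levels of different genes are compared as CPM per kilobase of annotated exon. On the latter scale the mESC levels ranged from 27.1 ± 2.66 for *Spic* to 1172 ± 99.2 for *Calcoco2* (SD, n = 3). *Calcoco2* was 20th and *2210409E12Rik*, at 821 ± 109, 42nd among the 13585 mESC genes with a length. *Xlr3c* followed at 166 ± 34.2, *Fbxo15* at 84.4 ± 4.47, *Phf11d* at 76.9 ± 4.11 and *Ly6g6e* at 51.0 ± 1.19. The 3 libraries of *Fbxo15* (79.2 to 87.1) and of *Phf11d* (72.7 to 80.9) overlapped, so their order was not resolved. None of the other neighbours in this order overlapped on this length. The length sums the exons of all annotated transcripts, 3841 bases for *Spic* and 1273 for *Ly6g6e*. Their longest coding transcripts have 1763 and 1142 bases, and whether the order holds on such lengths was not tested. In CPM without regard to length, *Ly6g6e* ranked 3585th of 13761 genes, and it is the least abundant of the 7 on that scale.

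**Figure D1:**
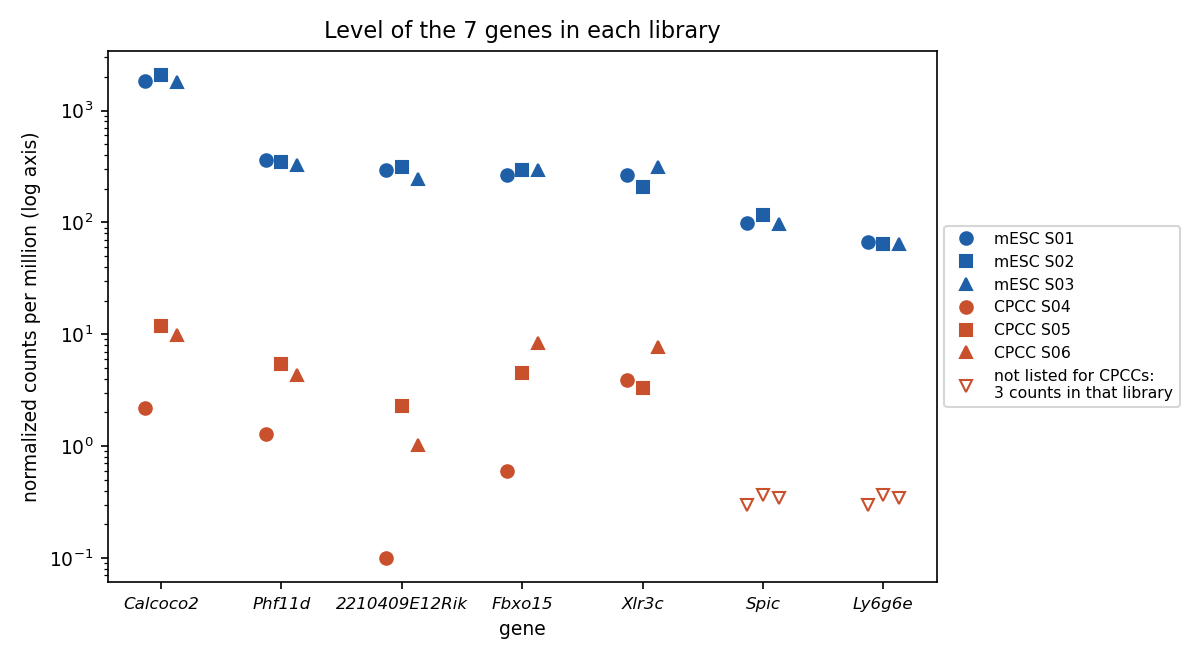
Normalized counts per 1000000 of each gene (log axis) in the 3 mESC libraries (blue) and the 3 CPCC libraries (red), 1 point per library. Open triangles mark the level of 3 counts where a gene is not listed for CPCCs. Each blue point lies above each red point of the same gene. For *Calcoco2* the lowest blue point is at 1787 and the highest red point at 11.8, and for *Xlr3c* they are at 208 and 7.64.

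*Spic* (chromosome 10, 88675270 to 88683024, minus strand, GRCm38) was counted 639, 788 and 668 times in the mESC libraries. These are 98.7, 116 and 97.7 CPM, a mean of 104.1 ± 10.2 (SD, n = 3). *Spic* is not listed for CPCCs, which means that it had fewer than 10 counts over S04, S05 and S06 together. Taken against 3 counts per library, or a mean of 0.335 CPM, it was at least 310.5-fold lower in CPCCs. No 100-base stretch of its transcript occurs exactly in another annotated transcript, but about 347 of its 1763 bases are 95.7% identical to *Gm37266*, and similar stretches lie in other transcripts. Whether reads there were shared was not tested. The 250 bases before its annotated start are shown because promoters of widely used genes are often rich in CpG, and this one is not. CpG positions are in capitals in all promoters shown here, which are from RefSeq on build GRCm38.p6 and read 5′ to 3′ on the gene's strand.
Spic promoter, chr10:88683024-88683273, minus strand: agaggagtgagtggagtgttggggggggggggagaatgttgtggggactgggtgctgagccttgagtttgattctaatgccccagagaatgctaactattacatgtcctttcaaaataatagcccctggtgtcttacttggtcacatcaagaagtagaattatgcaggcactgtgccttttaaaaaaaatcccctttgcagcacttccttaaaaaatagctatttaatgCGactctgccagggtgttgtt
It holds 1 CpG, where the median over 32851 promoters of the same length was 6 and 18.8% of them hold at most 1.

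Relatives of *Spic* did not share its pattern as a group. The list held 25 other ETS family genes, of which 16 were tested. In CPCCs 2 of these were lower and 6 higher at an adjusted p under 0.05, and their median log2 fold change was 0.73. Over all 12471 genes tested, 29.7% were lower and 31.7% higher by the same test, with a median log2 fold change of 0.03. The 3 largest changes were in *Elf3*, *Elk3* and *Etv4*. *Elf3*, an epithelial ETS factor, fell from 99.2 ± 9.84 to 2.40 ± 1.68 CPM (-5.39, standard error 0.50, adjusted p = 2.81e-05, where the first value in such brackets is the fitted log2 fold change from edgeR). *Elk3* rose from 3.26 ± 2.52 to 122 ± 44.2 CPM (5.21, standard error 0.50, adjusted p = 3.50e-05), and *Etv4* from 1.29 ± 0.281 to 23.7 ± 4.90 CPM (4.18, standard error 0.35, adjusted p = 1.59e-05). *Spi1*, the close relative of *Spic* that directs macrophage development, had 0.309, 1.77 and 0 CPM in mESCs and 4.27, 1.33 and 0.917 in CPCCs, and did not pass the threshold (adjusted p = 0.21). It was chosen as an example after its values were seen. Without S04, 4 of 15 tested list genes were lower and 6 higher, where 30.4% of all genes were lower, and the list's median was 0.10.

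Markers of macrophages, the cells in which *Spic* is best known, are listed mainly for CPCCs, where *Spic* is not. Of 22 such genes, 13 are in the CPCC table alone, 1 is in the mESC table alone, and 6 were tested. The defining markers *Ptprc*, *Csf1r*, *Adgre1* and *Tyrobp* are all among the 13 and had 15.6, 55.8, 19.6 and 32.3 CPM in S04, against 0.344, 4.93, 2.98 and 4.01 in S06. Of the 6 tested genes 1 was higher, *Cd68* (0.98, standard error 0.38, adjusted p = 0.048). None was lower by edgeR, against 1 at an unadjusted p under 0.05 and 1 by DESeq2. Their median log2 fold change was 0.52 and turned to -0.38 without S04, and *Cd68* was past the threshold without S06 but not without each of the other 5 libraries (adjusted p between 0.068 and 0.17). In mESCs, where *Spic* was abundant, the 4 defining markers are not listed, but other genes of the list are. *Laptm5*, *Fcgr3* and *Hmox1* had 56.9 ± 4.83, 30.4 ± 1.63 and 64.2 ± 15.5 CPM there. In CPCCs they had 25.5 ± 20.4, 18.7 ± 16.4 and 71.7 ± 39.6, and none of them passed by edgeR. *Mertk* and *Spi1* had higher means in CPCCs and did not pass either.

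*Phf11d* (chromosome 14, 59347407 to 59365491, minus strand) had 364, 347 and 327 CPM in S01, S02 and S03. In S04, S05 and S06 it had 1.29, 5.41 and 4.35 CPM. The lowest mESC library stood 60.5-fold above the highest CPCC library, and the mean fell 93.9-fold, from 346 ± 18.5 to 3.68 ± 2.14 CPM (SD, n = 3). Its fitted log2 fold change was -6.56 (standard error 0.43). Of the 100-base stretches of its transcript, 7.05% also occur in *Phf11a*, *Phf11b* or *Phf11c*. These 3 lie in a row with *Phf11d* on chromosome 14, and the promoters of *Phf11d* and *Phf11a* are shown because both genes fell by a similar amount.
Phf11d promoter, chr14:59365491-59365740, minus strand: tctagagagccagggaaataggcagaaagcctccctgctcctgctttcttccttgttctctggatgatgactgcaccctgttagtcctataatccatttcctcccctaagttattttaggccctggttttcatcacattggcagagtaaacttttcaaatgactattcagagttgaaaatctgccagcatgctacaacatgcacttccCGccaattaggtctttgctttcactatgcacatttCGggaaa
Phf11a promoter, chr14:59297523-59297772, minus strand: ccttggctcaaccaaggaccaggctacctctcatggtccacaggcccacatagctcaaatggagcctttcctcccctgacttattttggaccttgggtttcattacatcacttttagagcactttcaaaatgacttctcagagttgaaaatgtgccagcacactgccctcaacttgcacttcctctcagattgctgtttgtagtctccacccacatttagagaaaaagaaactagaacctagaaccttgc
The pair is identical at 163 of 289 aligned positions (56.4%). Aligned in the same way, the promoters of *Spic* and *Phf11d*, genes of different families, are 51.9% identical. Those of *Phf11a* and *Phf11b* are 83.8% identical. The *Phf11d* stretch holds 2 CpGs and the *Phf11a* stretch 0. One E2F motif, TTCCCGC, lies 46 to 40 bases before the start of *Phf11d*, on the strand of the gene. It was searched on both strands and occurs in 3.82% of all promoters. No other motif searched was found in *Spic*, *Phf11d* or *Xlr3c*. The octamer ATGCAAAT of POU5F1 occurs in 1.60% of all promoters and the ESRRB site AAGGTCA in 4.08%. The STAT motif TTCCNGGAA is in 0.913% and the KLF motif GGGTGTGG in 3.20% of them. For the GC box GGGCGG the share is 32.7%, and for the ETS motif CCGGAAG it is 6.91%. For the E-box CACGTG it is 6.02%, and for the TATA box TATAAA it is 12.4%. All were searched on both strands. A missing match says only that these letters are not in this window.

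All 3 tested paralogs of *Phf11d* had a negative log2 fold change, and 2 of the 3 passed the threshold, where 29.7% of all genes tested were lower. *Phf11a* had 106.6, 95.9 and 80.4 CPM in mESCs and 0.795, 1.87 and 0.688 in CPCCs. The fitted change was -6.42 on the log2 scale (standard error 0.35, adjusted p = 2.32e-06), close in size to that of *Phf11d*. *Phf11b* and *Phf11c* were far less abundant in mESCs, at 3.93 ± 0.555 and 5.97 ± 0.528 CPM. *Phf11b* fell to 0.540 ± 0.746 CPM in CPCCs (-2.77, standard error 0.92, adjusted p = 0.026), and this call was lost without any 1 of S01, S02, S03, S05 or S06, with adjusted p between 0.052 and 0.076. *Phf11c* went from 5.97 to 1.44 ± 1.24 CPM (-2.04, standard error 0.86, adjusted p = 0.066), and it passed with DESeq2 (adjusted p = 0.031) and without S04 or S06. The median of the 3 was -2.77 and moved to -4.86 without S04. No paralog was higher by edgeR, at an unadjusted p under 0.05 or by DESeq2. *Setdb2*, a histone methyltransferase gene next to this cluster, also fell (-0.88, standard error 0.25, adjusted p = 0.013).

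*Xlr3c* (chromosome X, 73254540 to 73265391, minus strand) had 264, 208 and 316 CPM in the mESC libraries and 3.89, 3.27 and 7.64 CPM in the CPCC libraries. It varied most of the 7 genes among mESC libraries, with a coefficient of variation of 20.6%, and it kept the largest share in CPCCs, 1.88% of the mESC mean. The mean fell 53.2-fold, from 263 ± 54.2 to 4.93 ± 2.36 CPM (SD, n = 3), and the fitted log2 fold change was -5.73 (standard error 0.35). These counts are uncertain because *Xlr3a*, *Xlr3b* and *Xlr3c* are near-identical copies. The *Xlr3c* transcript is 99.1% identical to *Xlr3b* and 98.6% to *Xlr3a*, and 46.7% of its 100-base stretches occur in another copy. Its locus also overlaps that of *Xlr5a* on the same strand. Summed over the 3 copies, the level was 709, 633 and 798 CPM in mESCs and 33.5, 41.4 and 75.8 in CPCCs, and the fitted change was -3.83 on the log2 scale (standard error 0.31). The sum thus fell less than *Xlr3c* alone. The promoters of *Xlr3c* and *Xlr3b* are shown because the 2 near-identical copies had unequal counts in CPCCs.
Xlr3c promoter, chrX:73265391-73265640, minus strand: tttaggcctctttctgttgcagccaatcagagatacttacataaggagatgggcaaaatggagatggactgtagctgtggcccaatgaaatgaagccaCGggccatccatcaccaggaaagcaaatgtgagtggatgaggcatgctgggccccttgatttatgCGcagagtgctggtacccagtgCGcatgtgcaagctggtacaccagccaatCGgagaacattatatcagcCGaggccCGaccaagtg
Xlr3b promoter, chrX:73191929-73192178, plus strand: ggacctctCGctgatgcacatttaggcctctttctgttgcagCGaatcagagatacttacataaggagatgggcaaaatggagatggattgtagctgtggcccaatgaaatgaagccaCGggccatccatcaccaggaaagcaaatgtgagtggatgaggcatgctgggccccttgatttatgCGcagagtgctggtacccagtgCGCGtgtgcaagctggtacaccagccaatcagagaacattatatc
The annotated starts of the 2 copies are offset, and the stretches are identical at 226 of 270 aligned positions (83.7%). Each holds 6 CpGs, the median over all promoters. The annotated start of *Xlr3a* is offset further, so its window and that of *Xlr3c* hold the same bases only in part. Over their full length these 2 windows are 48.6% identical, which does not measure the likeness of the shared part.

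The Xlr relatives fell together with *Xlr3c*. All 8 tested genes of the list were lower in CPCCs, with a median log2 fold change of -3.95, where 29.7% of all genes tested were lower. None was higher by edgeR, at an unadjusted p under 0.05 or by DESeq2, and the 8 calls held without each library in turn. The falls were largest in *Xlr4c*, *Xlr4b* and *Xlr5b*. *Xlr4c* had 57.9, 38.0 and 51.2 CPM in mESCs and 0.497, 0 and 0.688 in CPCCs (-6.87, standard error 0.53, adjusted p = 1.13e-05). *Xlr4b* went from 42.5 ± 7.19 to 0.438 ± 0.460 CPM (-6.53, standard error 0.56, adjusted p = 1.99e-05). *Xlr5b* had 0.0994 and 0.243 CPM in S04 and S05 but 4.81 in S06 (-4.77, standard error 0.87, adjusted p = 0.0013). The list's median was -5.84 without S06. *Xlr3a* and *Xlr3b*, named here for their likeness to *Xlr3c*, kept more: they went from 269 ± 21.8 to 22.3 ± 14.7 CPM (-3.60) and from 181 ± 7.10 to 23.0 ± 5.60 CPM (-2.98). *Sycp3*, the only list gene that is not X-linked among those tested, fell from 6.61 ± 2.92 to 0.877 ± 0.521 CPM (-2.96, standard error 0.65, adjusted p = 0.0037), and it is also the third listed gene from *Spic* to lower coordinates. Reads of the X-linked copies can be assigned to each other, so these falls are not independent counts.

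**Figure D2:**
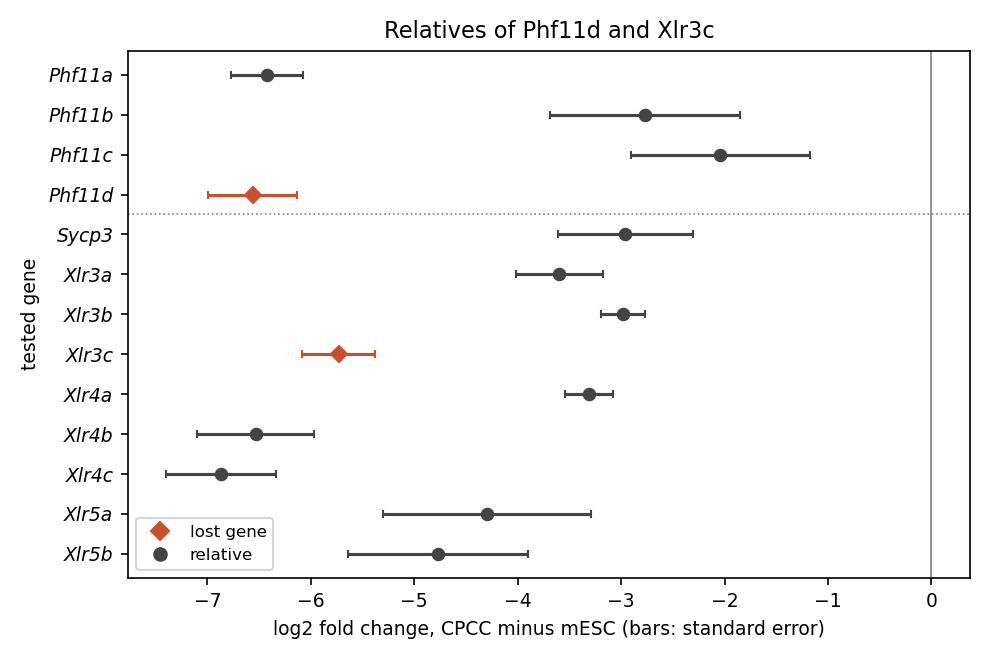
Fitted log2 fold change, CPCC minus mESC, of the tested relatives of *Phf11d* (above the dotted line) and *Xlr3c* (below it), with the standard error as bars. Diamonds mark the 2 genes chosen for their loss, at -6.56 and -5.73. All points lie left of 0, with *Xlr4c* at -6.87 and *Phf11c* at -2.04 as the extremes.

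*2210409E12Rik* (chromosome 11, 88972638 to 88973015, plus strand) had 295, 315 and 242 CPM in S01, S02 and S03. In CPCCs it had 1, 19 and 9 counts, or 0.0994, 2.30 and 1.03 CPM in S04, S05 and S06. The single count of S04 corresponds to 0.035% of the mESC mean, with an exact 95% Poisson interval from 8.86e-04% to 0.195% that covers counting error only. The mean fell 248-fold, from 284 ± 37.6 to 1.14 ± 1.11 CPM (SD, n = 3), and the fitted log2 fold change was -8.00 (standard error 0.56). The log2 ratio of the means was -7.95 and moved to -8.97 without S05, which held most of the CPCC reads. GENCODE M21 gives the gene a single transcript of 346 bases, classed as a transcribed processed pseudogene. It is 90.1% identical to *Elobl* and 76.7% identical to *Elob*, which encodes elongin B. Its first 197 bases are also an exon of *Coil*, the gene of the Cajal body protein coilin that lies downstream on the same strand, so reads there cannot be assigned to either gene. The remaining 149 bases are shown because they are the stretch that *Coil* does not share, with no capitals since no position in it is singled out.
2210409E12Rik, chr11:88972854-88973002, plus strand, bases 198 to 346 of the transcript: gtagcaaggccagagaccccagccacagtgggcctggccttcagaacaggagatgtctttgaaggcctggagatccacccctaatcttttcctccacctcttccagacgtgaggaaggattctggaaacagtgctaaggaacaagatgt
Of the 100-base stretches of the whole transcript, 39.7% occur in *Coil* or *Elobl*. *Elob* itself had 110.8 ± 6.23 CPM in mESCs and 70.9 ± 5.01 in CPCCs (-0.64, standard error 0.16, adjusted p = 0.0063). *Elobl* is not listed for either cell type. *Coil* went from 81.7, 85.9 and 66.4 CPM in mESCs to 16.3, 17.0 and 19.8 in CPCCs (-2.14, standard error 0.20, adjusted p = 2.7e-05). Both fitted changes were smaller than that of the pseudogene.

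*Calcoco2* (chromosome 11, 96098916 to 96111963, minus strand) was the most abundant of the 7 genes. It had 11823 and 14164 counts in S01 and S02 and 22, 97 and 85 in S04, S05 and S06. The levels were 1826, 2083 and 1787 CPM in the mESC libraries. In the CPCC libraries they were 2.19, 11.8 and 9.74 CPM. The lowest mESC library stood 152-fold above the highest CPCC library, and the mean fell 240.5-fold, from 1899 ± 161 to 7.90 ± 5.05 CPM (SD, n = 3). The fitted log2 fold change was -7.92 (standard error 0.55). *Calcoco2* alone gave between 57.2% and 60.8% of the counts of all 7 genes in mESCs. Of its 100-base stretches 2.76% occur in *Gm11701*, and *Gm9697* is 93.6% identical to it over 938 bases.

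Partners and relatives of *Calcoco2* in selective autophagy did not fall as a group. All 14 list genes were tested, and 3 (21.4%) were lower and 7 (50%) higher in CPCCs, against 29.7% and 31.7% over all genes tested. The list's median log2 fold change was 0.55. The changes were largest in *Lgals8*, *Gabarapl2* and *Gabarap*. *Lgals8* encodes galectin-8, a sensor of damaged vesicles, and rose from 4.30 ± 1.62 to 31.3 ± 16.2 CPM (2.86, standard error 0.43, adjusted p = 4.74e-04). The ubiquitin-like proteins of *Gabarap* and *Gabarapl2* sit on the autophagosome membrane, and the 2 genes moved in opposite directions. *Gabarap* rose from 95.7 ± 7.42 to 349 ± 62.7 CPM (1.87, standard error 0.18, adjusted p = 4.02e-05). *Gabarapl2* fell from 306 ± 61.4 to 45.3 ± 13.6 CPM (-2.75, standard error 0.25, adjusted p = 2.78e-05). Without S04 the list's median was 0.20.

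*Ly6g6e* (chromosome 17, 35076942 to 35078805, plus strand) was counted 431, 433 and 440 times in the mESC libraries. The levels were 66.6, 63.7 and 64.4 CPM, and their coefficient of variation of 2.33% was the smallest of the 7 genes. It is not listed for CPCCs and was at least 193.5-fold lower there, taken against 3 counts per library. Its transcript overlaps one of *Ly6g6d* on the opposite strand over 127 bases, and whether counting used the strand is not given in the sources used here. *Ly6g6d* had 3.24, 3.09 and 2.78 CPM in mESCs, is not listed for CPCCs either, and was at least 9.06-fold lower there. The Ly6/uPAR list held 34 other genes, most of them at low counts. As with *Ly6g6e*, 4 of them are listed for mESCs alone, and 4 are listed for CPCCs alone, so these were not tested. Of the 8 tested, 2 (25%) were lower and 3 (37.5%) higher, near the 29.7% and 31.7% over all genes tested, with a median log2 fold change of 1.20. *Plaur*, the urokinase receptor gene, rose to 67.8, 19.3 and 19.0 CPM in S04, S05 and S06 (6.11, standard error 0.86, adjusted p = 2.96e-04). *Lypd6* rose from 3.55, 1.91 and 2.63 CPM in mESCs to 12.2, 11.9 and 8.25 in CPCCs (1.99, standard error 0.40, adjusted p = 0.0021). *Cd59b*, which encodes a complement inhibitor, fell from 3.77 ± 0.821 to 1.27 ± 0.820 CPM (-1.57, standard error 0.61, adjusted p = 0.048), and this call was lost without each library other than S05, with adjusted p between 0.078 and 0.14. The call was also lost with upper-quartile normalization, with no filter and with library totals without TMM (adjusted p = 0.051, 0.057 and 0.055). The counts depend on which genes are tested. With genes of either table and missing genes at 0 counts, 13 were tested, 6 were lower and 4 higher. In that fit 28.5% of all genes were lower, and the list's median reversed to -0.11.

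*Fbxo15* (chromosome 18, 84935025 to 84981393, plus strand) is widely used as a reporter of the stem cell state. It had 266, 292 and 293 CPM in S01, S02 and S03. In CPCCs it had 6, 37 and 73 counts, or 0.596, 4.49 and 8.37 CPM in S04, S05 and S06. The mean fell 63.2-fold, from 284 ± 15.0 to 4.48 ± 3.88 CPM (SD, n = 3), and the fitted log2 fold change was -6.00 (standard error 0.64), the largest standard error of the 5 genes listed for CPCCs. The log2 ratio of the means was -5.98 and moved to -6.80 without S06. The gene shares bases with *Timm21*, a mitochondrial import gene on the opposite strand. *Timm21* had 11.3, 13.8 and 11.3 CPM in mESCs and 14.6, 18.6 and 25.6 in CPCCs (0.69, standard error 0.28, adjusted p = 0.059), and it passed the threshold without S04 (adjusted p = 0.013). It also passed with the filter of at least 10 counts in every sample (adjusted p = 0.037).

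Other F-box genes and their SCF partners, which build ubiquitin ligases like the one of *Fbxo15*, spread in both directions. Of 71 such genes, 60 were tested, 13 were lower and 18 higher in CPCCs, and their median log2 fold change was 0.26. These shares of 21.7% and 30.0% lie near or below those over all genes tested. *Fbxl7* rose from 1.49 ± 0.822 to 49.6 ± 7.83 CPM (5.04, standard error 0.39, adjusted p = 1.13e-05), and *Fbxo4* from 1.15 ± 0.792 to 6.87 ± 2.19 CPM (2.56, standard error 0.63, adjusted p = 0.0066). *Fbxo6*, whose protein recognizes glycoproteins, fell from 158 ± 18.0 to 30.0 ± 5.33 CPM (-2.40, standard error 0.20, adjusted p = 1.59e-05). The largest fall among the 60 was thus smaller than that of *Fbxo15*. Without S04 the list's median was 0.12.

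What was left in each CPCC library differed between libraries in a shared way. The summed counts of the 7 genes were 3196, 3426 and 3095 per 1000000 in mESCs and 7.10, 26.4 and 32.1 in S04, S05 and S06. S04 held the least in 4 of the 5 genes listed for CPCCs, with *Xlr3c* as the exception. S05 held the most of *Calcoco2*, *Phf11d* and *2210409E12Rik*, and S06 the most of *Fbxo15* and *Xlr3c*. The median share left over the 5 genes was 0.210% in S04, 1.25% in S05 and 1.26% in S06. The 20 mESC markers ran the same way, with medians of 1.80%, 3.81% and 6.29%, and 18 of the 20 were lowest in S04. This order is the reverse of that of the macrophage markers, and the part of either in the levels of the 7 genes was not tested.

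The core pluripotency genes kept larger mean shares than the 7 genes. *Nanog* was at 0.861%, 2.81% and 4.66% of its mESC mean in S04, S05 and S06, and *Esrrb* at 0.913%, 2.73% and 3.67%. *Zfp42* was at 0.817%, 1.75% and 3.88%, and *Pou5f1* at 2.58%, 11.1% and 21.3%. In S04 these 4 genes lay above *Calcoco2*, *2210409E12Rik*, *Phf11d* and *Fbxo15* and, except for *Pou5f1*, below *Xlr3c*. Of the 20 mESC markers, 17 had a higher mean share than each of the 5 genes, and none had a lower mean share than each of them. Since the 7 genes were chosen for the smallness of this share, the comparison describes them and is no test.

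**Figure D3:**
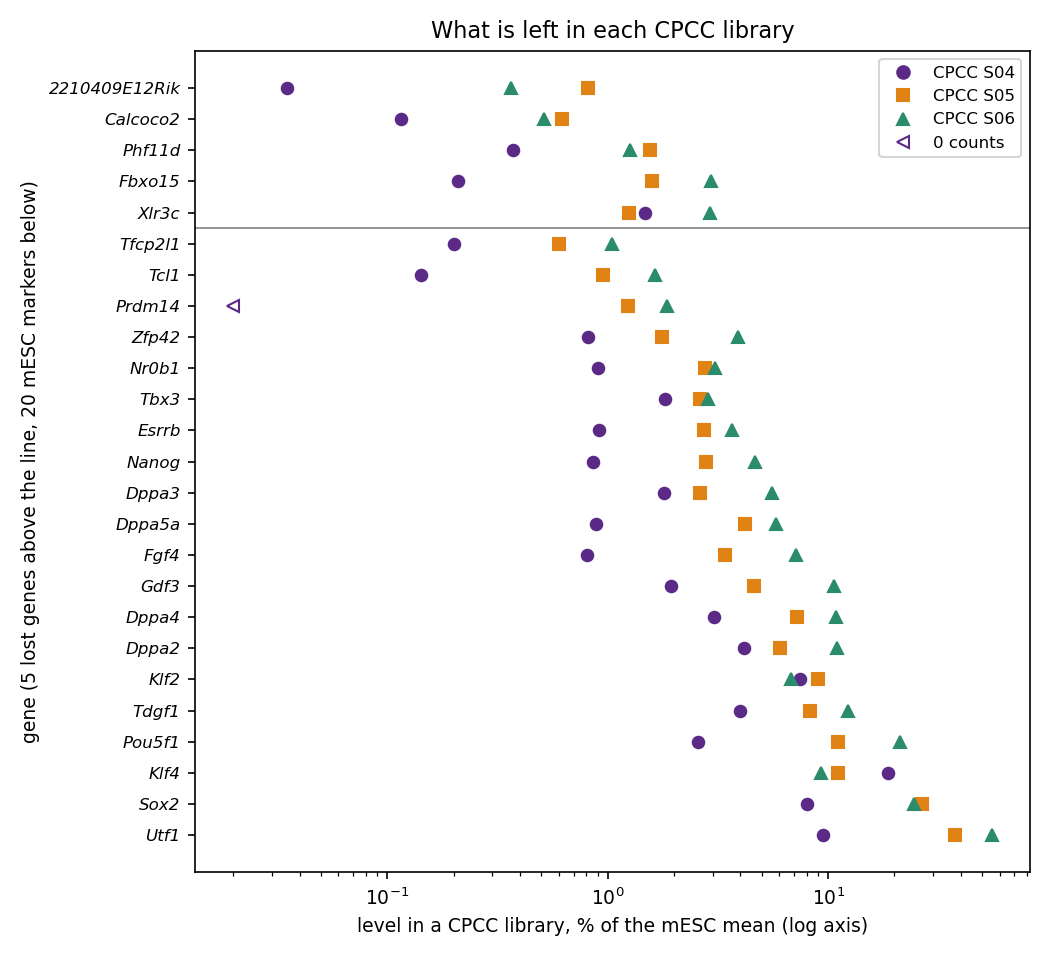
Level in each CPCC library as a percentage of the mESC mean (log axis) for the 5 genes listed for CPCCs (above the line) and 20 mESC markers (below it), each set ordered by its mean. S04 is the leftmost library for 4 of the 5 genes, down to 0.035% for *2210409E12Rik*, and for 18 of the 20 markers. The open triangle is *Prdm14* in S04, with 0 counts, which allows up to 0.202%.

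The 7 genes are not all of the genes that were lost to this degree. Of the 3585 genes with an mESC level at least that of *Ly6g6e* in CPM, 21 others had a mean share left in CPCCs no higher than the 1.88% of *Xlr3c*. Of those, 1 is not listed for CPCCs. The most abundant were *Tfcp2l1*, a factor of the naive network, *Ooep*, an egg-expressed gene, and *Tdh*, the threonine dehydrogenase gene of stem cell metabolism, with 0.615%, 1.59% and 1.29% left. Just above the share of *Xlr3c* lay *Smtnl2* at 1.94% and *Arl14epl* at 1.98%. No other gene at the level of *Calcoco2* or above kept so small a share.

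**Figure D4:**
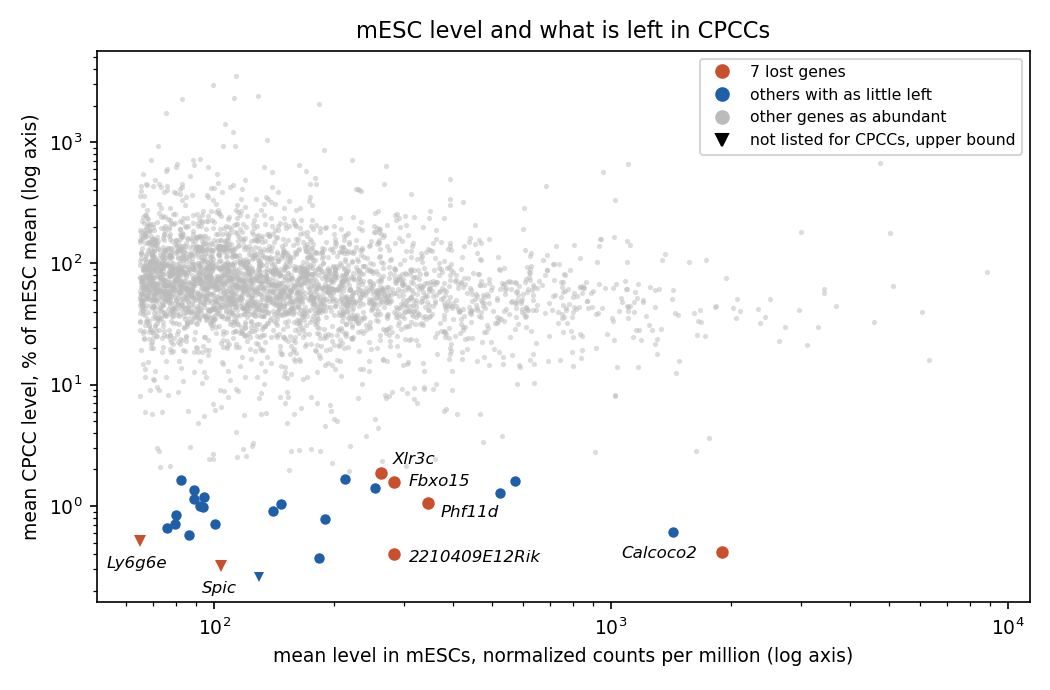
Mean level in mESCs (normalized counts per 1000000, log axis) against the mean CPCC level as a percentage of it (log axis), 1 point per gene, for the 3585 genes at least as abundant in mESCs as *Ly6g6e*. The 7 genes (red) and 21 others (blue) lie at or below 1.88%. *Calcoco2* is the rightmost of these, and triangles are upper bounds for genes not listed for CPCCs.

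By profile over the 6 libraries, the 5 genes nearest to the median of the 7 were *Dazl*, *Smtnl2*, *Nr0b1*, *Rpl39l* and *Arl14epl*. Their root mean square difference from that median, on the scale log2(CPM + 0.5), was 0.46, 0.54, 0.67, 0.67 and 0.72. Of the 7 genes themselves, *Fbxo15* and *Phf11d* lay at 0.39 and 0.45, and *Calcoco2*, *Spic* and *Ly6g6e* at 2.17, 2.11 and 2.38. *Dazl*, an RNA-binding germ cell gene, had 254 ± 65.9 CPM in mESCs and 3.58 ± 1.90 in CPCCs. *Nr0b1*, a nuclear receptor gene of the naive network, had 198 ± 23.4 and 4.44 ± 2.32 CPM. *Rpl39l*, a germline variant of a ribosomal protein gene, had 190 ± 17.2 and 1.48 ± 0.639 CPM. *Smtnl2* and *Arl14epl* had 218 ± 13.9 and 155 ± 11.4 CPM in mESCs and 4.22 ± 2.38 and 3.07 ± 1.99 in CPCCs.

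Within mESCs the 7 genes were about as even between libraries as other genes. Their coefficients of variation had a median of 8.47%, against 9.94% over the 3560 genes between the lowest and the highest of the 7 in level. Markers of the 2-cell-like state, a rare state within mESC cultures, were low. Of the 19 listed, 6 were tested, and none was lower or higher in CPCCs by edgeR, at an unadjusted p under 0.05 or by DESeq2. Without S03, 1 was higher. Their median log2 fold change was 0.27, and -0.92 without S06. Their summed counts lay between 15.0 and 22.3 per 1000000 in mESCs.

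The genes beside the 7 on their chromosomes were mixed. At least 1 neighbour was lower beside each of the 7 except *Ly6g6e*, beside which 1 was higher. Of the 42 listed genes that lie nearest, 3 on each side of each gene, 26 were tested, 15 (57.7%) were lower and 2 higher, against 29.7% and 31.7% over all genes tested. Their median log2 fold change was -0.80. Without the relatives of *Phf11d* and *Xlr3c*, 10 of 20 (50%) were lower and the median was -0.45, a split added after the values were seen. The difference between these shares and the background was not tested. With each library left out, between 11 and 16 were lower. The largest falls were in the relatives *Xlr4c*, *Xlr4b* and *Phf11a*.

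Around *2210409E12Rik*, 5 of the 6 neighbours fell. *Gm15698*, the nearest to lower coordinates, went from 149, 169 and 140 CPM in mESCs to 2.29, 13.1 and 6.76 in CPCCs (-4.38, standard error 0.50, adjusted p = 9.32e-05). *Trim25*, a ubiquitin ligase gene of antiviral signalling that lies second to higher coordinates and was named after its values were seen, fell by 3.44 on the log2 scale (standard error 0.24, adjusted p = 6.18e-06). Beside the other 6 genes the calls varied. Next to *Calcoco2*, *Atp5g1*, a subunit gene of the mitochondrial ATP synthase, fell from 296 ± 48.4 to 85.8 ± 6.42 CPM (-1.78, standard error 0.18, adjusted p = 4.44e-05), and *Ttll6* had 9.60 ± 1.27 CPM in mESCs and is not listed for CPCCs, at least 28.6-fold lower. *Cyb5a*, beside *Fbxo15*, had 144 ± 11.9 and 180.3 ± 41.1 CPM and did not pass the threshold (0.32, standard error 0.19, adjusted p = 0.17). *Abhd16a*, beside *Ly6g6e*, rose from 27.9 ± 1.00 to 43.0 ± 0.927 CPM (0.63, standard error 0.18, adjusted p = 0.013), a call lost without S01 (adjusted p = 0.054). The genes nearest to *Spic* were at or near the floor, *Mybpc1* with 0.737 ± 0.671 CPM in mESCs and *Gm4925* with 0.470 ± 0.650 in CPCCs. *Xlr5c*, beside *Xlr3c*, had 2.36 ± 0.279 CPM in mESCs and is not listed for CPCCs, at least 7.03-fold lower.

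**Figure D5:**
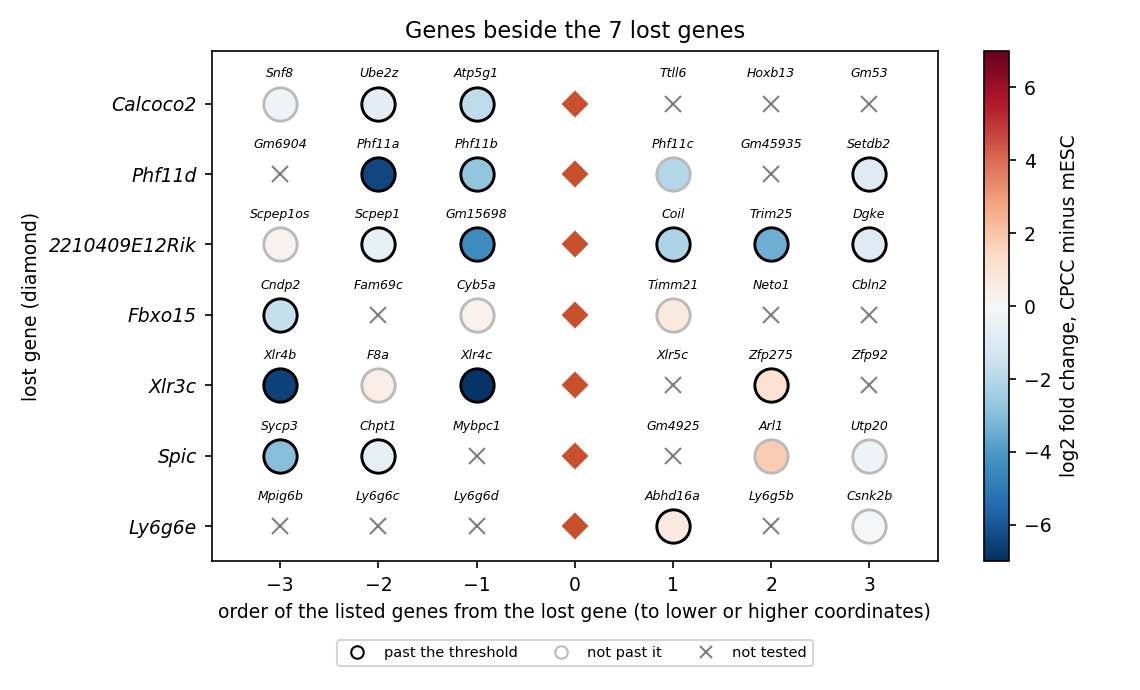
The 3 listed genes on each side of each of the 7 genes, placed by order and not to distance. Circles are coloured by log2 fold change, CPCC minus mESC, with a black rim where past the threshold (15 lower, 2 higher of 26 tested), and crosses are genes not tested. The deepest blue lies beside *Xlr3c* and *Phf11d*, and both sides of *2210409E12Rik* are blue next to it.

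Of all genes tested, 34.5% had their 3 CPCC libraries below their 3 mESC libraries. The 5 of the 7 genes that are listed for both cell types did so too, which the choice of these genes fixed.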

How the data were processed

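Bulk RNA-seq of 3 mESC and 3 CPCC libraries was used. Per the methods of the study, cDNA was made from polyA RNA with SMART-Seq v4. The submitters' processing notes name STAR 2.7 and mm10, and the counter and its use of strand are not given in the sources used here. The authors deposited estimated counts per gene, not normalized, with a table for mESCs and another for CPCCs. Depending on the library, 17.9% to 21.5% of the estimates were fractional. No deposited sample column was left unused.

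Counts were rounded. The 13001 genes in both tables were filtered with filterByExpr, which left 12471, and tested with edgeR 4.0.16 (R 4.3.3) by the quasi-likelihood test with TMM and Benjamini-Hochberg adjustment at 0.05. CPM uses the same library sizes. A gene missing from a table was bounded against 3 counts per library, 0.298 to 0.364 CPM in CPCCs. Exon lengths were from GENCODE M21, which matched 98.5% of the symbols. Transcripts were compared with BLAST 2.17.0. On simulated counts for 13001 genes, edgeR recovered 140 of 141 genes changed at least 4-fold and called 7 unchanged ones.

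Alternatives were DESeq2 1.42.0, upper-quartile normalization, other filters, other library sizes, genes of either table, and leaving out each library. Library totals without TMM and the summed Xlr3 copies were added later. The 7 genes and the gene lists were chosen with earlier results of these data known. Named genes are the 7, up to 3 of each list with the largest change past the threshold, all tested genes of lists with at most 5, the nearest neighbours, the 5 nearest profiles, and the 3 most abundant genes lost as much. The libraries are stated to be biological replicates, and p-values measure the spread between them. Neighbours were ordered by gene start in the tables' coordinates.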

Additional observations from a re-analysis of the deposited data

How the results depend on the processing

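No paired analysis was possible because the columns carry no replicate numbers. Of the 2 cell types, 7656 genes differed past the threshold, and 6536 to 7895 did with each library left out in turn. Over the 7 genes the median log2 ratio of CPCC to mESC means was -7.60, with *Spic* and *Ly6g6e* at their bounds. That median is the bound of *Ly6g6e* itself, against 3 counts per library, and not a ratio of measured means. With each library left out in turn the median lay between -7.66 and -7.40. Because the floor is fixed, this narrow range does not measure how steady the falls were. The list medians, with each library left out, lay between 0.10 and 0.81 for the ETS family, 0.12 and 0.30 for F-box genes, 0.47 and 1.18 for Ly6/uPAR, -4.86 and -2.40 for the Phf11 paralogs, -5.84 and -3.53 for the Xlr family, 0.20 and 0.75 for autophagy, -0.38 and 0.75 for macrophage markers, -0.92 and 0.75 for 2-cell-like markers, and -0.76 and -0.62 for the neighbours. The Ly6/uPAR median reversed to -0.11 and -0.20 with genes of either table and missing genes at 0 or 3 counts, and moved to 0.50 unfiltered and 0.68 with a minimum of 10 counts per sample. With missing genes at 0 or 3 counts the macrophage median was 9.94 or 4.99, since genes listed only for CPCCs then entered it. The neighbour median was -0.58 with no filter, -0.53 with at least 10 counts and -0.97 with missing genes at 3 counts, and the cause was not tested. Of 572 values of 42 named genes under the alternatives, 547 kept their direction and call, 20 lost the call, 5 gained it and 0 reversed. The floor of 3 counts per library limits what can be said of *Spic* and *Ly6g6e*. No Phf11 paralog passed the filter of 10 counts in every sample.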
